A study of Mus musculus with 3 samples.

Results

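The enzymes that make and recycle the deoxynucleotides for DNA were followed in mouse spleens that carried transplanted islets. The set holds 10 of the 34796 gene names on the array and was picked by name, with the ratios of Rrm2b in these data already known: Rrm1, Rrm2, Rrm2b, Tyms, Dut, Dctd, Tk1, Tk2, Dck and Samhd1. On the array they were read by 17 of the 55679 gene probes, and 15 of the 17 were well above background on all 3 arrays.

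All 3 spleens came from C57BL/6J mice made diabetic with streptozotocin, a toxin of the insulin-producing beta cells, and transplanted with 25 islets in the spleen plus 100 under the capsule of the kidney (the treatment protocol gives both grafts for all samples, the sample characteristics give the kidney graft for Sample 3 only). Sample 1 was harvested on day 0, directly after transplantation, and Sample 2 on day 2. Sample 3 was harvested on day 139, after the kidney with the capsular graft had been taken out on day 100. Recipients and islet donors were male and of the same inbred background, and the methods give 1 age range for all mice of the study but not the age at each harvest, and how many mice were pooled on an array, if any, is not given in the sources used here. With 1 array for each day and no spleen without islets, the differences below describe these arrays. No p-value was computed, and day, age, blood glucose and the nephrectomy cannot be told apart.

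Ribonucleotide reductase turns ribonucleotides into deoxynucleotides and pairs a large subunit, Rrm1, with a small one. Rrm2 is the small subunit of S phase and is degraded in mitosis, whereas Rrm2b is a p53-inducible small subunit that serves DNA repair and mitochondrial DNA in resting cells. Dut, Dctd and Tyms lead to dTMP, the precursor that only DNA uses, while the kinases Tk1 in the cytosol, Tk2 in mitochondria and Dck recover deoxynucleosides, and Samhd1 breaks deoxynucleotides down again. In the adult mouse spleen, red pulp erythroblasts and activated lymphocytes are known to divide.

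The widest range over the 3 samples, 4.27-fold, was that of the Rrm2b probe. A stretch of it, bases 7 to 36 of the 60 bases on the array, is shown because 10% of it is G or C, against 23.3% of the whole probe.
Rrm2b probe, bases 7 to 36: atcatttaactaaattactaattatttaaa
Probes of Dctd and Samhd1 are shown because their annotated ends lie 25214 and 1354 bases apart for 60 bases of sequence, so they cover an exon junction.
Dctd probe: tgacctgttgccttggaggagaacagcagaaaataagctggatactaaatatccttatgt
Samhd1 probe: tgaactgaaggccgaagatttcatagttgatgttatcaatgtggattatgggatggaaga
All probe coordinates were taken from the mm9 annotation that came with the arrays, and the sequences are written 5′ to 3′.

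Values below are quantile normalized signals on a linear scale for the brightest probe of each gene, and a ratio is the signal of one sample divided by that of another. A gene was called higher at a ratio of at least 1.5 and lower at a ratio of at most 0.66. Signals of different probes were not compared as amounts, apart from the choice of the brightest probe and the summed signals of marker lists. Such sums are weighted toward the brightest probes of a list. The error given on a log2 ratio is that of the spots as estimated by the scanner software, and it covers neither the labeling nor the mice.

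On day 139 the small subunits of the reductase lay on opposite sides of their earlier signals. Rrm1 and Rrm2 were lower and Rrm2b was higher in Sample 3 than in Sample 2, and the mitochondrial kinase Tk2 was higher while the S-phase kinase Tk1 was lower. Against Sample 1, 2 of the 10 genes were called higher (Rrm2b and Tk2), where 12.8% of the 32108 detected probes were, and 2 were called lower (Rrm2 and Tk1), where 14.7% were. Against Sample 2, 2 were called higher (Rrm2b and Tk2), beside 12.4% of all detected probes, and 4 were called lower (Rrm1, Rrm2, Dut and Tk1), beside 14.4%. The counts of higher genes and the count of lower genes against Sample 1 are thus near what the array gives for probes at large, and only the count of lower genes against Sample 2 is well above that share. In Sample 2 over Sample 1 the count was 0 higher and 1 lower (Rrm2b), beside 10.1% and 10.4% of all detected probes. Ratios below 1 were found for 6 of the 10 genes in Sample 3 over Sample 1, for 6 over Sample 2 and for 5 in Sample 2 over Sample 1, beside 52.2%, 53.1% and 48.4% of all detected probes. Dctd enters all these counts by its brightest probe alone. Its other probe had ratios of 0.614, 1.16 and 0.529 in the same order of comparisons, each on the opposite side of 1. Both comparisons of Sample 3 share its array and are not independent of each other.

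**Figure D1:**
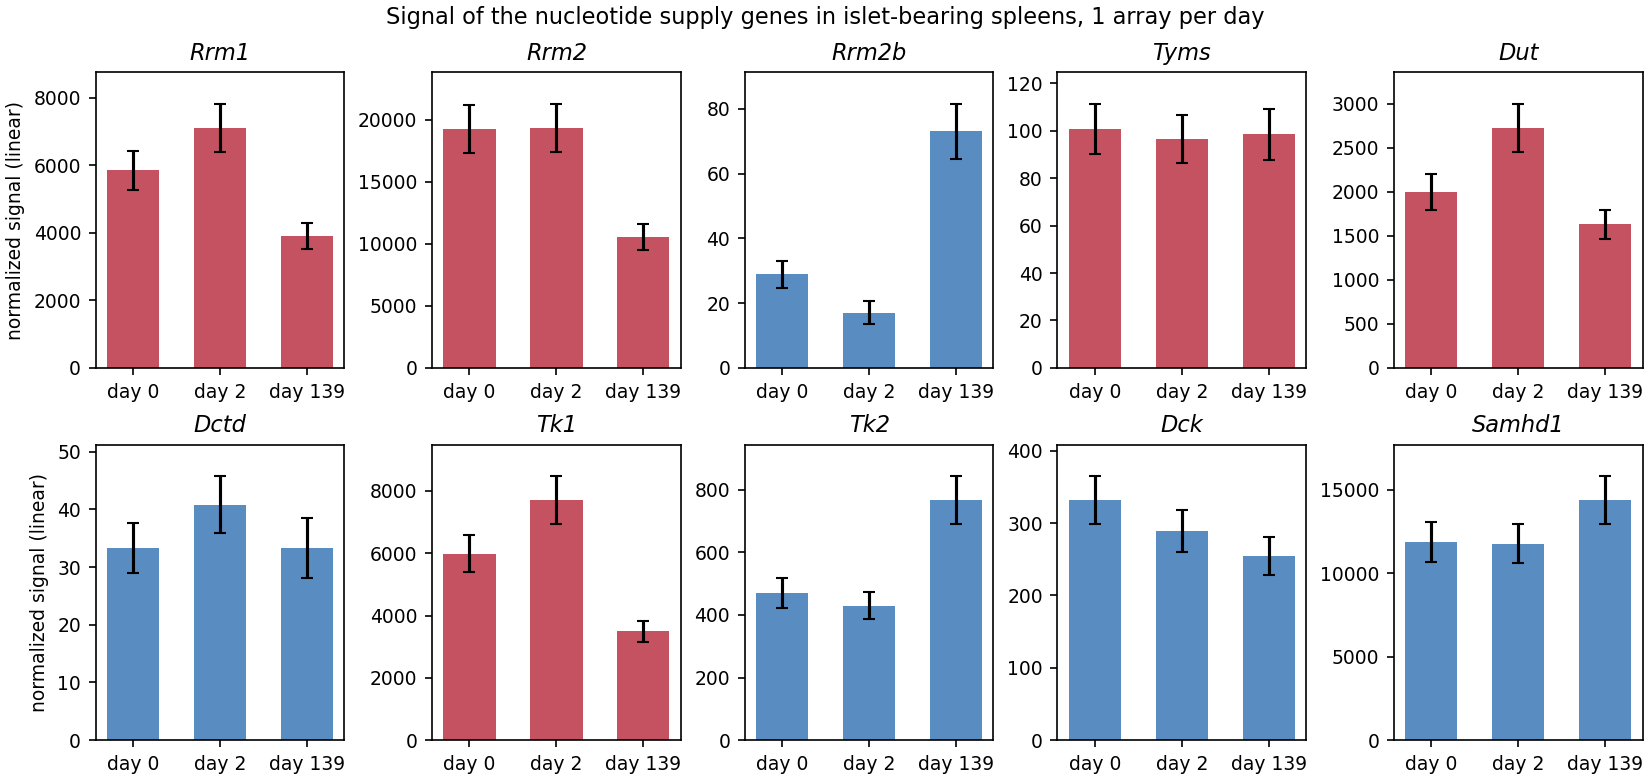
Normalized signal of each gene (vertical axis, linear and starting at 0, scaled per gene) on day 0, day 2 and day 139, 1 array per day; error bars are the scanner software's error of the spot, red marks the 5 genes known for S-phase expression and blue the other 5. Rrm1, Rrm2, Dut and Tk1 have their lowest bar on day 139, Rrm2b and Tk2 their highest, and the 3 bars of Tyms lie within their errors.

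Rrm1, the large subunit, had a signal of 5850 on day 0, 7104 on day 2 and 3898 on day 139 (chromosome 7, 109617223 to 109617283). Its ratio in Sample 3 was 0.549 over Sample 2, a log2 ratio of -0.87 ± 0.20, and 0.666 over Sample 1, which lies just outside the limit. The S-phase small subunit Rrm2 had 19250 and 19359 in Samples 1 and 2 and 10560 in Sample 3 (chromosome 12, 25398824 to 25398883). Sample 3 had a ratio of 0.549 to Sample 1 and of 0.545 to Sample 2, which are log2 ratios of -0.87 ± 0.20 each, and Samples 1 and 2 differed by 0.01 ± 0.20. Both S-phase subunits were therefore lowest in Sample 3 after quantile normalization, by more than the error of the spots.

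Rrm2b, the small subunit of resting cells, went the other way. On the minus strand of chromosome 15 (37853821 to 37853880) it had signals of 28.9, 17.1 and 73.0 in Samples 1, 2 and 3, which is dim, since the lowest normalized signal of any probe well above background was 12.9, 14.0 and 19.3 on these arrays. Its log2 ratio in Sample 3 was 1.34 ± 0.27 over Sample 1 and 2.09 ± 0.34 over Sample 2, higher than 96.0% and 97.9% of the detected probes. In Sample 2 it was lower than in Sample 1, with a ratio of 0.591 and a log2 ratio of -0.76 ± 0.37. A further Rrm2b probe with the same accession (37855630 to 37855689) was not well above background on any array and gives no ratio.

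Set against the other subunits, Rrm2b changed by 4.61-fold more than Rrm2 in Sample 3 over Sample 1, a log2 difference of 2.20 ± 0.34, and by 3.79-fold more than Rrm1. Over Sample 2 the difference was 7.83-fold for Rrm2 (2.97 ± 0.40) and 7.79-fold for Rrm1. These are differences between the ratios of probes within the same pair of arrays, so a common scaling factor drops out of them. The background subtraction of the dim Rrm2b probe does not drop out, and they do not give the amounts of the subunits. After normexp, a model-based way to subtract the background that ends with an offset of 50, the ratio of Rrm2b itself was 1.42 over Sample 1 and no longer called, and 1.57 over Sample 2, and that of Sample 2 over Sample 1 was 0.905 and no longer called either. Rrm2 then had ratios of 0.548 and 0.545 in Sample 3 over Samples 1 and 2, so its differences from Rrm2b were smaller with this correction. The offset of 50 by itself pulls the ratios of probes as dim as that of Rrm2b toward 1. Its part in these changes was not separated from that of the background subtraction.

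**Figure D2:**
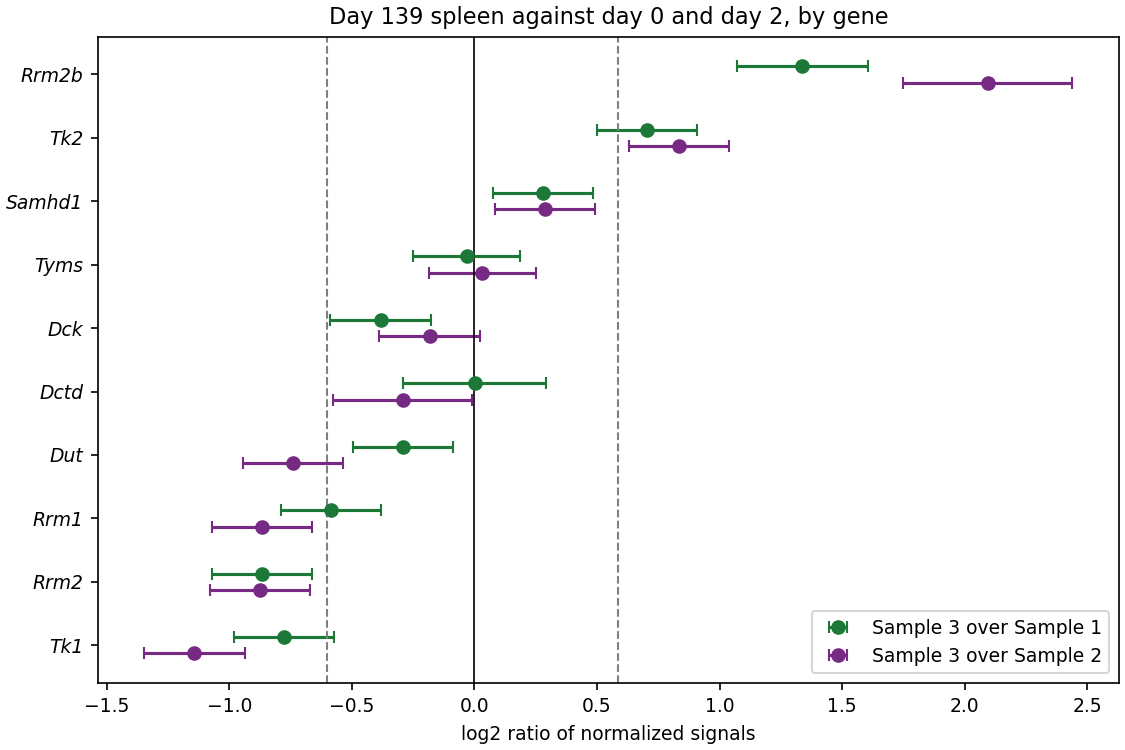
Log2 ratio of normalized signals (horizontal axis) of Sample 3 over Sample 1 in green and over Sample 2 in purple for each gene, with the scanner software's error of the spots; dashed lines are the ratio limits of 1.5 and 0.66. Rrm2b and Tk2 lie beyond the upper line in both comparisons, and Tk1 and Rrm2 beyond the lower line.

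Of the enzymes on the way to dTMP, Dut, which turns dUTP into dUMP and keeps uracil out of DNA, had signals of 1998, 2724 and 1631 (chromosome 2, 125083359 to 125083418). Sample 2 was the highest, and the log2 ratio of Sample 3 was -0.74 ± 0.20 over Sample 2 and -0.29 ± 0.20 over Sample 1. A dimmer Dut probe gave 141, 163 and 99.4, with ratios of 0.608 over Sample 2 and 0.703 over Sample 1. Both Dut probes thus had the same order of samples.

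Tyms, the thymidylate synthase that makes dTMP from dUMP, had nearly equal signals of 101, 96.4 and 98.6 (chromosome 5, 30385578 to 30385637). Its log2 ratio in Sample 3 was -0.03 ± 0.22 over Sample 1 and 0.03 ± 0.22 over Sample 2, within the error of the spots. It was the only one of the 5 S-phase genes with no call in any comparison, and it was read by 1 probe. Dctd, the dCMP deaminase that supplies dUMP, was read by a pair of dim probes that disagreed. The junction probe shown above gave 33.3, 40.8 and 33.3, and the other (chromosome 8, 49226475 to 49226534) gave 36.6, 19.3 and 22.4, so that Sample 2 was the highest by one and the lowest by the other, and no direction is given for Dctd.

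Among the salvage kinases, Tk1, the cytosolic thymidine kinase made in S phase, had signals of 5981, 7703 and 3490 (chromosome 11, 117676845 to 117676904). Sample 3 was the lowest, with log2 ratios of -0.78 ± 0.20 over Sample 1 and -1.14 ± 0.20 over Sample 2. The latter, a ratio of 0.453, was the lowest of the 10 genes. A second Tk1 probe with another transcript accession gave 1140, 1109 and 702, and ratios of 0.616 and 0.633. A probe of a further Tk1 transcript was not well above background on any array.

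Tk2, the mitochondrial thymidine kinase, had signals of 470, 430 and 766 (chromosome 8, 106751194 to 106751253). Sample 3 was the highest, with log2 ratios of 0.70 ± 0.20 over Sample 1 and 0.84 ± 0.20 over Sample 2. Tk2 and Tk1 phosphorylate the same nucleoside in different compartments, and in Sample 3 their signals lay on opposite sides of those in both earlier samples. Dck, the deoxycytidine kinase that lymphocytes use, had 331, 289 and 254 (chromosome 5, 89211802 to 89211861), with log2 ratios of -0.38 ± 0.21 and -0.18 ± 0.21 in Sample 3, and was not called.

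Samhd1, which hydrolyses deoxynucleotides in cells that do not divide, had signals of 11851, 11763 and 14372 by its brightest probe (chromosome 2, 156923265 to 156923324), and its ratios of 1.21 over Sample 1 and 1.22 over Sample 2 were not called. The junction probe gave 1775, 1577 and 2016, with ratios of 1.14 and 1.28. A dim probe of a further transcript, with 24.6, 22.9 and 49.7, gave ratios of 2.02 and 2.17. The 3 probes had Sample 3 highest but differed in size.

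The 5 genes known for S-phase expression (Rrm1, Rrm2, Tk1, Tyms and Dut) had a median log2 ratio of -0.59 in Sample 3 over Sample 1 and -0.87 over Sample 2, where all detected probes had medians of -0.02 and -0.04. In Sample 2 over Sample 1 their median was 0.28, against 0.01 for all detected probes. The other 5 genes had medians of 0.28 and 0.29 in Sample 3. Over the 3 samples, Rrm1 lay closest to Tk1 in its pattern, with a Euclidean distance of 0.20 between log2 signals taken as differences from their own means, and at 0.21 from Dut and 0.23 from Rrm2. The nearest of the 10 genes to Rrm2b was Tk2, at 0.89, and the farthest was Tk1, at 2.32.

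The methods also asked for a Z-score of at least 2 or at most -2. Its formula is not given in the sources used here, so the spread of log2 ratios among the 1000 probes of most similar mean signal served as its unit. By ratio and Z-score together, 0 of the 10 genes passed over Sample 1, beside 2.52% of all detected probes in the upward and 2.21% in the downward direction. Over Sample 2, 1 passed (Rrm2b, Z-score 2.56), beside 2.39% upward and 1.77% downward. These counts depend on the spread chosen: with a scaled median absolute deviation, 3 passed over Sample 1 (Rrm2, Rrm2b and Tk1) and 6 over Sample 2, and with detection required on all 3 arrays Rrm2b passed over Sample 1 with a Z-score of 2.15. Tk1 was close, with a Z-score of -1.92, and Rrm2 had -1.69 and Rrm1 -1.45. In Sample 2 over Sample 1 the count was 0, beside 1.91% upward and 2.55% downward.

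**Figure D3:**
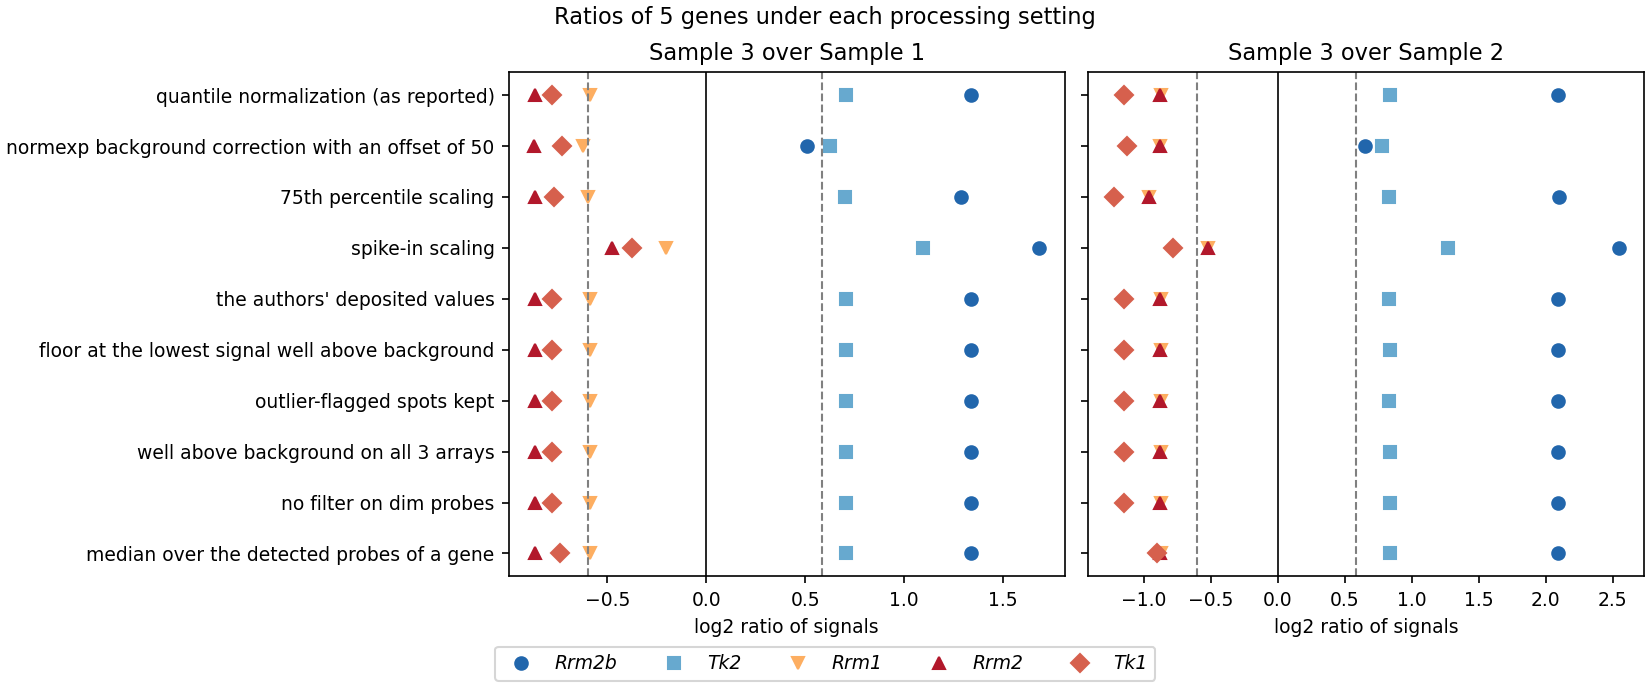
Log2 ratio of Sample 3 over Sample 1 (left) and over Sample 2 (right) for Rrm2b, Tk2, Rrm1, Rrm2 and Tk1 under 10 processing settings, with dashed lines at ratios of 1.5 and 0.66. No gene changes side of 0. Rrm2b moves most with the normexp correction, whose offset by itself pulls dim ratios toward 1, to ratios of 1.42 and 1.57. Under spike-in scaling every point moves to the right.

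How far the S-phase genes were lower depended on the scaling. Scaled to 8 spike-in controls in place of quantile normalization, the median over all probes that were detected moved, as a log2 ratio, from -0.02 to 0.35 over Sample 1 and from -0.04 to 0.38 over Sample 2. The ratio of Rrm2 then became 0.72 and that of Tk1 0.772 over Sample 1, and neither was called. Rrm1 over Sample 1 became 0.868, a log2 ratio of -0.20, which did not exceed the error of 0.20 of its spots. Over Sample 2 the ratios of Rrm1, Rrm2 and Dut became 0.699, 0.697 and 0.795, also short of the limit, while Tk1 remained called lower, which left 1 gene called lower over Sample 2 in place of 4. The direction of the small differences turned for Dut over Sample 1 (1.07), Dck over Sample 1 (1.01) and over Sample 2 (1.19) and Tyms over Sample 1 (1.27), and by the brightest probe for Dctd over Sample 2 (1.08), and Samhd1 was called higher at 1.58 and 1.51. Relative to the median of all probes, Rrm2 was at -0.83 and Tk1 at -0.73 under spike-in scaling, beside -0.84 and -0.75 under quantile normalization. Rrm2b over Sample 1 was at 1.33 and 1.36 on this relative scale, and Tk2 at 0.74 and 0.73.

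Promoter sequences of RefSeq (GRCm38.p6) were available for 9 of the 10 genes, all but Rrm2b, and the 250 bases before each start were searched on both strands. They are shown for Rrm1 and Rrm2, the subunits of the S-phase enzyme, with up to 20 bases on either side of a match. Capitals mark the CCAAT box and the E2F core, which was searched in the forms TTCCCGC or else TTCGCGC or else TTGGCGC or else TTGCCGC.
Rrm1, chr7:102441584-102441674, plus strand: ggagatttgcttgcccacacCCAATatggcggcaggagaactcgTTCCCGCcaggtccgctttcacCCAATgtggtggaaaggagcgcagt
Rrm2, chr12:24708004-24708045, plus strand: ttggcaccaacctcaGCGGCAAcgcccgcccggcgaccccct
Rrm2, chr12:24708184-24708228, plus strand: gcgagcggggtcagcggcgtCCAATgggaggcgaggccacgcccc
The E2F core stood 67 bases before the start in Rrm1 and, on the opposite strand, 235 bases before it in Rrm2. Among the 9 genes these were the only 2 with an E2F core, which 7.89% of all 32851 promoters hold, and the longer form with a further leading T was found in 0 of the 9 and in 1.86% of all promoters. The CCAAT box was found in 3 (Rrm1, Rrm2 and Dctd) and in 33.8% of all promoters, and TATAAA in 0 of the 9 and in 12.4%. These are matches of letters in a short window, and the E2F core was chosen after the longer form had given no match.

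Beyond the 10 genes, purine and pyrimidine supply was described by 41 genes, and all 41 were measured. In Sample 3 over Sample 1, 1 was called higher and 4 lower, with a median log2 ratio of -0.22. Over Sample 2 it was 0 higher and 6 lower, with a median of -0.27. For this and the lists that follow, the shares of all detected probes to read the counts against are 12.8% higher and 14.7% lower over Sample 1, and 12.4% and 14.4% over Sample 2. These shares hold for quantile normalization only. Under spike-in scaling, an alternative added for the lists after seeing the data, they were not computed, and all detected probes had medians of 0.35 and 0.38. The medians of this list turned to 0.19 and 0.16 there, with 5 and 8 genes called higher and 0 lower. Under both scalings the list medians lay below those of all detected probes, and no direction beyond that is given for this list as a whole. Pfas of purine synthesis had a ratio of 0.567 over Sample 2, and the lowest ratios over Sample 1 were those of Mthfd2, a mitochondrial folate enzyme (0.572), and of the CTP synthase Ctps (0.6). Ctps2, the other CTP synthase, had the highest ratios over both, 1.58 and 1.43, and differed in direction from Ctps. Next below it were the adenylate kinase Ak1 over Sample 1 (1.39) and Nme7 over Sample 2 (1.34).

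Of deoxynucleoside salvage and breakdown, 23 of 25 genes were measured. Over Sample 1, 4 were called higher and 4 lower (median -0.05), and over Sample 2, 5 and 5 (median 0.11). Under spike-in scaling these became 8 higher and 1 lower (median 0.34) and 10 and 2 (0.50), where all detected probes had medians of 0.35 and 0.38. The median over Sample 1 changed sign, as did that of all detected probes. Upp1, a uridine phosphorylase, had signals of 352, 122 and 76.9 and was lowest in Sample 3, with a ratio of 0.219 over Sample 1 and a Z-score of -3.63. The nucleoside transporter Slc29a1 had ratios of 0.595 and 0.491, and Pnp2 had 0.57 over Sample 2. Ada, the adenosine deaminase that lymphocytes need, had 1.87 over Sample 1, Upb1 of pyrimidine breakdown had 2.64 over Sample 1 and 1.77 over Sample 2, and the dim Dpyd had 2.39 over Sample 2. Mitochondrial DNA upkeep, in which Rrm2b and Tk2 take part, had 13 measured genes, of which 0 were called higher and 1 lower over Sample 1 (median 0.05) and 0 over Sample 2 (median 0.09). Under spike-in scaling it had 2 and 4 called higher and 0 lower (medians 0.46 and 0.52). Its highest ratios were 1.49 for Polg2 over Sample 1 and 1.42 for Tfam over Sample 2, and its lowest 0.657 for Peo1, the helicase, over Sample 1. In the set of 22 measured p53 targets, 2 were called higher and 3 lower over Sample 1 (median 0.09), and 3 and 4 over Sample 2 (median 0.03). Under spike-in scaling the counts were 8 higher and 1 lower, and 7 and 1 (medians 0.49 and 0.45). Cdkn1a, the cell cycle inhibitor p21, had ratios of 0.279 and 0.259, opposite to Rrm2b, whereas Trp53inp1 had 2.68 and 2.53 and Perp 2.48 over Sample 1.

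**Figure D4:**
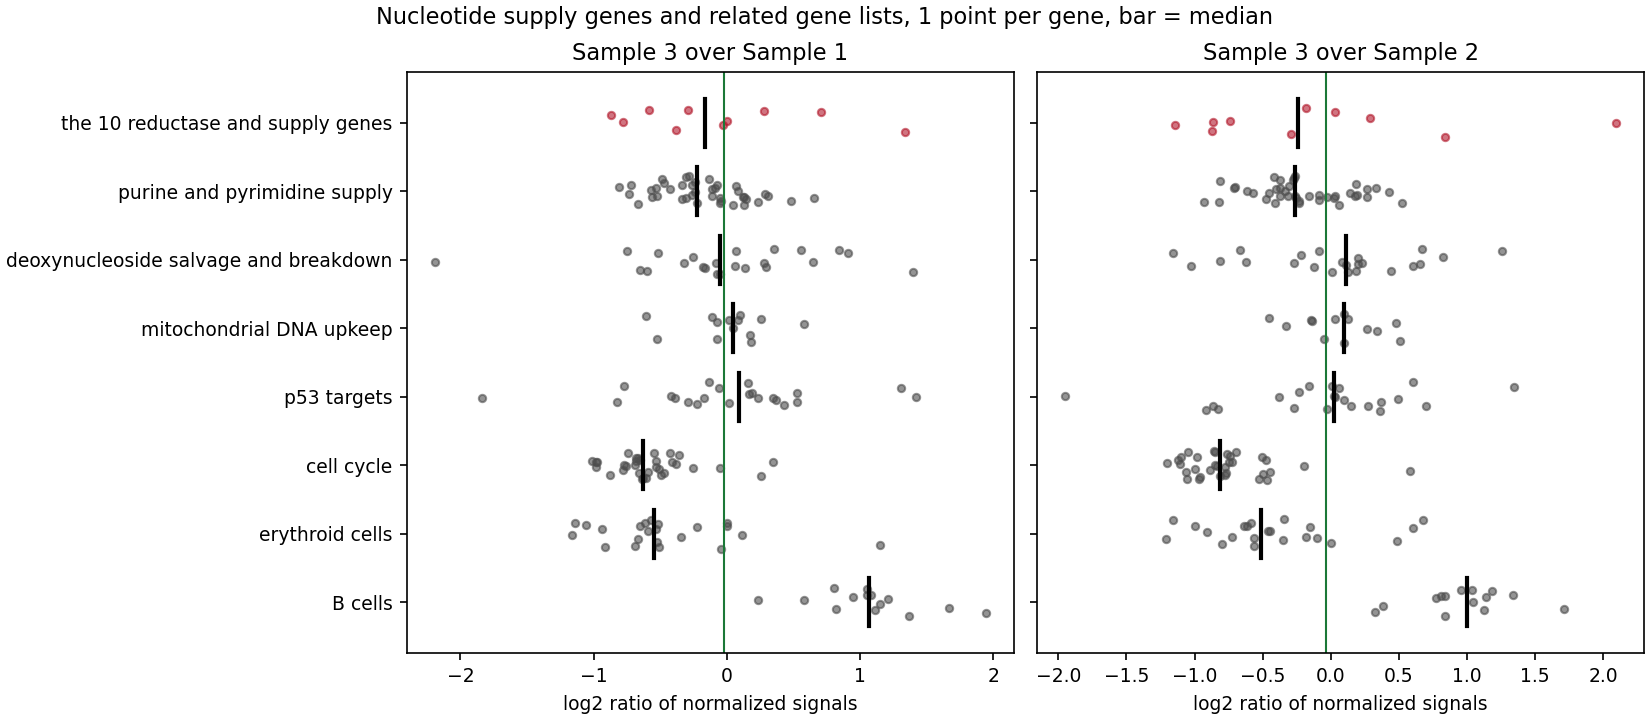
Log2 ratio (horizontal axis) of Sample 3 over Sample 1 (left) and over Sample 2 (right), 1 point per gene and a black bar at each median; the green line is the median of all detected probes. The 10 reductase and supply genes, in red, spread to both sides, the cell cycle genes have medians of -0.63 and -0.82, and the B cell genes 1.07 and 1.00.

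Markers of dividing, erythroid and B cells were described beside these genes. Of 33 cell cycle genes, 18 were called lower in Sample 3 over Sample 1 and 25 over Sample 2, and 0 higher in either, with medians of -0.63 and -0.82, where 14.7% and 14.4% of all detected probes were called lower. In Sample 2 over Sample 1 their median was 0.24. Under spike-in scaling the medians were -0.22 and -0.45, with 1 gene called lower and 2 higher over Sample 1, and 8 lower and 1 higher over Sample 2. The proliferation marker Mki67 had a ratio of 0.507 over Sample 1, next to Cdc6 of origin licensing at 0.507, and E2f1 had 0.434 over Sample 2 and Chaf1a 0.46. Of 22 erythroid genes, 9 were called lower and 1 higher over Sample 1, and 8 and 2 over Sample 2 (medians -0.55 and -0.51). Under spike-in scaling it was 3 lower and 2 higher, and 3 and 3 (medians -0.12 and -0.07). Their summed signal was 1062240, 1068800 and 977331 in Samples 1, 2 and 3, most of it from the globins Hba-a1 and Hbb-b1, which sit at the top of every array, where quantile normalization sets values equal by rank. Of 14 B cell genes, 12 were called higher over either sample and 0 lower, and their summed signal was 75236, 77365 and 146982. All measured erythroid and B cell markers were well above background on all arrays, and 31 of the 33 cell cycle genes were so on both arrays of each comparison. In RNA of a whole spleen, fewer cells of a type and less RNA per cell cannot be told apart, and the part of dividing, erythroid and B cells in the ratios of Rrm1, Rrm2, Dut, Tk1, Rrm2b and Tk2 was not tested.

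Other cell types were described likewise, over Sample 1 and then Sample 2. The T cell list of 16 genes had 13 and 4 called higher (medians 0.80 and 0.51), and the plasma cell list of 9 had 7 and 9 (1.26 and 1.42), beside 12.8% and 12.4% of all detected probes. Under spike-in scaling, where these shares do not hold, the T cell list had 15 and 14 called higher. The 15 macrophage genes had 1 higher and 3 lower, and 2 and 2 (medians 0.02 and -0.25). The latter median turned to 0.15 under spike-in scaling, where all detected probes had 0.38. Of 16 neutrophil genes, 6 were called lower and 1 higher over Sample 1 and 1 and 1 over Sample 2. All 6 also had a Z-score of at most -2, among them the collagenase Mmp8 with a ratio of 0.0446 and Retnlg with 0.0799, while the median of the list was 0.07, and its summed signal was 271056, 120724 and 126419. The islet and pancreas lists rested partly on probes that were not well above background on both arrays compared, whose ratios are only bounds. The 12 beta cell genes detected had 5 and 11 called lower (medians -0.11 and -2.49), with 3 higher and 3 lower over Sample 1 under spike-in scaling (median 0.30). Of them 7 and 8 were well above background on both arrays, and Pdx1 and Slc2a2 were not detected. In Sample 2 over Sample 1, 9 of the 12 were called higher and 0 lower (median 1.92), beside 10.1% and 10.4% of all detected probes. The low ratios over Sample 2 are thus set against a sample in which this list was high. Of the 11 exocrine pancreas genes detected, 4 were well above background on both arrays in either comparison, so that the counts of 10 and 9 called higher and the medians of 3.15 and 1.94 rest mostly on dim signals. Their summed signal was 235, 319 and 994. This sum was highest in Sample 3, as was Rrm2b. In Sample 2 over Sample 1 the sum was higher and Rrm2b lower, on signals that were mostly dim. Any link between them was not tested. As for the tissue label, Cd79a of B cells, Cd3e of T cells and Spic of red pulp macrophages were well above background on all 3 arrays.

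Likeness of pattern was measured by the same distance over the 3 samples, among the 26884 probes well above background on all 3 arrays. The nearest genes to Rrm2b, at distances below the error of 0.27 to 0.37 on its own log2 ratios, were Ankrd37 (0.13), the potassium channel subunit Kcnmb4 (0.15), the calcium channel subunit Cacna1s (0.18), Adam23 (0.19) and Ly6k (0.21). Ankrd37, for example, had signals of 172, 95.6 and 383. The nearest genes to Rrm2 were Sh2d5 (0.01), the kinetochore gene Cenpk (0.01), Fignl1 of DNA repair (0.02), Tac2 (0.02) and Samd14 (0.02). Within a distance of 0.2 lay 607 other probes for Rrm2 and 8 for Rrm2b. The error on the log2 ratios of Rrm2 was 0.20, so the 5 genes named for it are not set apart from many others. Cenpk had signals of 2153, 2141 and 1174. With 3 samples, a likeness of this kind describes 3 arrays only.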

How the data were processed

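The authors deposited the scanner output of 3 single-color arrays (SurePrint G3 Mouse, Cy3), 1 for each sample, holding the intensity of every spot with its flags. Background subtraction and detrending within each array were done by Feature Extraction 10.7.1.1, per the file headers, whereas the submitters' processing notes name 9.5.1.1. The authors also deposited a table of processed intensity values, whose columns share a median of 22.0 and differ from the values computed here by a median of at most 0.000247 on the log2 scale. It is linear and not centred.

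Control and outlier-flagged spots were left out, spots of a probe averaged, and 55679 probes quantile normalized, floored at 1 and taken to log2 (Python 3.11.15, numpy 2.4.6, pandas 2.3.3). Detected probes were well above background on at least 1 array (32108). Well above background were 50.4% to 54.4% of the probes per array, and 0 gene spots were saturated. The number of arrays limits the precision. Each gene was read by its brightest detected probe. The genes and lists were chosen with earlier results of these data known, and the lists were written from general knowledge.

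Named were the 10 genes, the 2 highest and 2 lowest of a list in each comparison of Sample 3 among genes well above background on both arrays, and the 5 genes nearest to Rrm2b and Rrm2; 3 spleen markers and the globins were taken from the marker lists outside this rule, after their values were seen, and some genes that the rule names are not reported here. Alternatives were normexp (limma 3.58.1, R 4.3.3; offset 50), the 75th percentile or 8 spike-in controls as the basis of scaling, the table of the authors, dim values raised to the lowest one well above background, outlier-flagged spots kept, detection on all 3 arrays, no filter, the median of a gene's probes, ratio limits of 2 and 0.5, and a Z-score by a window of 250 probes, by 1 SD over all probes or by a scaled median absolute deviation. The calculation was tested on simulated data with changes put into brighter probes only, so the test does not cover probes as dim as those of Rrm2b and Dctd. Exon annotation of the probes was not used here.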

Additional observations from a re-analysis of the deposited data

How the results depend on the processing

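No paired analysis was possible because each condition has 1 array and the labels give no replicate numbers, and no sample could be left out for the same reason. No ratio that was called higher or lower for the 10 genes changed direction, in the comparison where it was called, under any alternative run. With the normexp correction, Rrm2b had ratios of 1.42 in Sample 3 over Sample 1 and 0.905 in Sample 2 over Sample 1, which left 1 gene higher in the first comparison and 0 lower in the second, Rrm1 joined those lower over Sample 1 (0.649, 3 in all), and the median of the S-phase genes over Sample 1 became -0.62, past the limit. Under spike-in scaling 0 genes were lower over Sample 1 and 1 over Sample 2, and 2 genes passed ratio and Z-score over Sample 2 (Rrm2b and Tk2). The median of the S-phase genes in that setting was -0.20 over Sample 1 and -0.52 over Sample 2, both short of the limit. In the same setting, added for the gene lists after seeing the data, the cell cycle list had medians of -0.22 over Sample 1 and -0.45 over Sample 2, both short of the limit, and the purine and pyrimidine list turned from -0.22 to 0.19 and from -0.27 to 0.16. The T cell list over Sample 2 had a median of 0.93, past the limit. All detected probes had medians of 0.35 over Sample 1 and 0.38 over Sample 2 in this setting, above those of the purine and pyrimidine list. With ratio limits of 2 and 0.5, 1 gene was higher and 0 lower over Sample 1, 1 higher and 1 lower over Sample 2, and 0 lower in Sample 2 over Sample 1. By ratio and Z-score, 2 genes passed over Sample 2 under 75th percentile scaling (Rrm2b and Tk1), 1 passed over Sample 1 with detection on all 3 arrays (Rrm2b), and with a scaled median absolute deviation 3 passed over Sample 1 and 6 over Sample 2. The shares of all detected probes that pass in these settings were not computed. The ratio of Rrm2b ranged from 1.42 to 3.21 over Sample 1 and from 1.57 to 5.83 over Sample 2. The causes of these differences were not tested. Signal over background limits what the dim probes of Rrm2b and Dctd can show, and the normexp offset by itself pulls their ratios toward 1.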
